A study of Mus musculus with 9 samples.

Results

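The transcripts described are those of 9 genes of interferon signalling and antigen presentation in mouse embryonic stem cells depleted of Fam60a or of Sin3a. They were chosen by name, with earlier results of these data known: the interferon regulatory factors Irf1, Irf3 and Irf9, the signal transducer Stat2, and the class I antigen presentation genes B2m, Tap1, Psmb8, Psmb9 and Nlrc5. Of the 37990 genes in the count tables, 8 of these 9 were found by gene ID, and 6 held enough reads to be tested. Psmb8 and Nlrc5 did not pass the filter on low counts, and Psmb9 is not analysed here because its annotated ID had no match.

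All 9 libraries came from the E14 line of mouse embryonic stem cells, grown with LIF on gelatin, transduced with a lentiviral pLKO.1 hairpin vector and selected with puromycin. There were 3 libraries with a hairpin against Fam60a, 3 with a hairpin against Sin3a and 3 labelled T2SC, which were taken as the scrambled, non-targeting hairpin because their titles name neither target. The label of 1 Fam60a library reads Fam60. Each group stood for 3 biological replicates of transduced, selected cells of a single line, so the vector, virus and puromycin were shared by all groups including the control. The RNA counts used here hold no measure of residual protein of the targets. The Sin3a protein holds together a complex that removes acetyl groups from histones, and Fam60a, also called Sinhcaf, is one of its subunits.

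Interferons bind cell surface receptors whose JAK kinases phosphorylate STAT proteins. Type I and III interferons lead to a complex that holds STAT2 and IRF9 and binds interferon-stimulated response elements, whereas interferon gamma acts through gamma-activated sites, one of them in the Irf1 promoter. IRF1 and the class I transactivator NLRC5 in turn drive the genes that cut peptides, carry them into the endoplasmic reticulum and load them on MHC class I. Mouse embryonic stem cells are known for a weak interferon response and low surface MHC class I.

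In GENCODE M21 on GRCm38, Tap1 (chr17:34187553-34197225, plus strand), Psmb8 (chr17:34197721-34201454, plus) and Psmb9 (chr17:34181987-34187764, minus) are neighbours in the MHC region. Irf1 lies at chr11:53770014-53778374, Irf3 at chr7:44997648-45002848, Irf9 at chr14:55603571-55610030, Stat2 at chr10:128270559-128292849, B2m at chr2:122147686-122153083 and Nlrc5 at chr8:94434356-94527272, all on the plus strand.

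Promoters are shown of Irf1 and Irf9, which were called in Sin3a knockdown, of Tap1, and of Stat2 and B2m, whose promoters match the core of the interferon-stimulated response element, because the interferon pathway is read out through such short elements. Promoter windows came from RefSeq on GRCm38.p6, from 250 bases before to 50 bases after each start site, and 8 of the 9 members were found there. The 250 bases before the RefSeq start of Irf1, Irf9, Stat2 and B2m are printed on the plus strand. So are the 225 bases between the RefSeq starts of the divergent pair Tap1 and Psmb9. In GENCODE M21 this pair overlaps instead, with the Psmb9 start at 34187764 inside Tap1. Capitals mark matches, on either strand, to the interferon-stimulated response element core (GAAA, any 2 bases, GAAA), the gamma-activated site (TTC, any 3 bases, GAA) and the Y box CCAAT.
Irf1 (chr11:53769764-53770013): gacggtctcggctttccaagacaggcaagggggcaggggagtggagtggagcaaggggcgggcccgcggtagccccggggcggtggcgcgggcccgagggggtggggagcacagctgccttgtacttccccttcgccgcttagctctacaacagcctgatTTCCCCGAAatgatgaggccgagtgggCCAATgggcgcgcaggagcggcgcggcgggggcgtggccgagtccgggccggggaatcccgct
Irf9 (chr14:55603735-55603984): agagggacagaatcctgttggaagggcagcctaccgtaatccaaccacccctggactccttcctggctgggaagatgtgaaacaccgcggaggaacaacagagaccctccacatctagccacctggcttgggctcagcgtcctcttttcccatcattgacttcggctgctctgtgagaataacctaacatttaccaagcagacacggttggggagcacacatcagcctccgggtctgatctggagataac
Stat2 (chr10:128270248-128270497): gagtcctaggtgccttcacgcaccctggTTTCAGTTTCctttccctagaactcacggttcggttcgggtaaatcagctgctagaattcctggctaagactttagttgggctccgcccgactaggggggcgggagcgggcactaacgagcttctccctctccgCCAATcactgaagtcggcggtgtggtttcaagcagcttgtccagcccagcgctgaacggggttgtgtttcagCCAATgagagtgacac
B2m (chr2:122147437-122147686): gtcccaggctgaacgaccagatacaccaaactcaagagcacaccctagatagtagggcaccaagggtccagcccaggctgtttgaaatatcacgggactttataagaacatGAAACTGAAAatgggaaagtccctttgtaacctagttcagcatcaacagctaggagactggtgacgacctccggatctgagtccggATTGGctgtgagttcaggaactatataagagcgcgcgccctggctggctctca
Tap1-Psmb9 (chr17:34187331-34187555): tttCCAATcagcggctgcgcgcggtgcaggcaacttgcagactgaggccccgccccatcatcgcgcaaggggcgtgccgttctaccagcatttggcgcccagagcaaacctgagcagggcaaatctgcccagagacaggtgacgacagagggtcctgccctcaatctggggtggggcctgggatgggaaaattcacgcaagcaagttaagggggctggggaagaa

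RefSeq gave Irf1 and Irf9 a second, downstream start each, whose windows held none of the capitalised motifs. The first Irf1 window held the gamma-activated site TTCCCCGAA at bases -90 to -82 from the start and a Y box at -63 to -59, with no match to the response element core. The B2m window held the response element core GAAACTGAAA at -139 to -130 and a Y box at -53 to -49. In Stat2 the core lay on the minus strand, as TTTCAGTTTC at -222 to -213, beside 2 Y boxes. The Tap1 and Psmb9 windows shared 1 Y box and held neither the core nor a gamma-activated site. Psmb8 held a gamma-activated site, TTCCCAGAA at -97 to -89, and the windows of Irf3 and Irf9 held none of these motifs. The Irf9 and Psmb8 windows lie inside the GENCODE genes, so the bases before the GENCODE starts of these genes were not searched. Among all 32851 windows of 300 bases, 3.44% held the core, 8.3% a gamma-activated site and 37.4% a Y box, and no match of these motifs overlapped another in the members. A looser NF-kappaB type pattern (GGG, any 5 bases, CC) was in 50.8% of windows and is not capitalised: it matched in all members with a window but Psmb8: 6 times in Irf1, 5 times each in Tap1 and Psmb9, 4 times in B2m, 2 times in Stat2 and 1 time each in Irf3 and Irf9. Matches of this looser pattern that overlap, or that take the same bases on both strands, were counted separately. A match of letters is a description and not evidence of binding.

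The libraries held between 2607872 and 7674887 counted reads, so that 3 reads corresponded to between 0.391 and 1.15 CPM, which are reads scaled to a common library size. Fam60a fell to 5.73 ± 0.753 CPM in Fam60a knockdown, against 13.5 ± 0.472 CPM in control (SD, n = 3 each; log2 fold change -1.23, adjusted p = 0.028, edgeR, a call that held in 6 of 15 alternatives). Sin3a fell to 126 ± 13.4 CPM in Sin3a knockdown, against 287 ± 21.9 CPM in control (log2 fold change -1.19, adjusted p = 0.00149, edgeR). Sin3a knockdown replicate 3 stood apart from the other libraries: it was the shallowest, held 90 mitochondrial reads against 6268 to 7118 elsewhere, and correlated with its own group at a mean r of 0.885, against 0.935 to 0.981 for the others. Against the other Sin3a libraries, the tenth of genes with the lowest GC content (up to 41.6%) was lower there by a median log2 difference of -1.23. The tenth with the highest GC content (from 58.1%) was higher there by 0.794. All 9 embryonic stem cell markers were detected in every library, with summed levels of 1230 to 1410 CPM in Fam60a knockdown, 1430 to 1560 CPM in Sin3a knockdown and 1430 to 1590 CPM in control. In these bulk samples, fewer cells expressing a gene and less RNA per cell cannot be told apart.

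Per kilobase of exon in the control, B2m, the light chain of every MHC class I molecule, was the most abundant of the members at 34.4 ± 8.96 CPM per kb (SD, n = 3 here and for the other levels). Irf3, the factor activated by nucleic acid sensing, followed at 18.3 ± 1.69 CPM per kb, Irf1 at 15.7 ± 3.22 and Stat2 at 15.0 ± 2.02. Irf3, Irf1 and Stat2 did not differ from one another beyond their spread. Irf9 lay lower at 5.16 ± 0.386 CPM per kb, and Tap1, a subunit of the peptide transporter, at 2.76 ± 2.54 CPM per kb, and these neighbours overlapped. Among 14126 tested genes with a known exon length, these control levels stood between percentile 21.7 for Tap1 and percentile 87.8 for B2m. The immunoproteasome subunit Psmb8 held 1, 2 and 3 reads in the Fam60a knockdown libraries, 0, 1 and 1 in the Sin3a knockdown libraries, and 0, 2 and 1 in the control libraries. Nlrc5 held 1, 12 and 5 reads in Fam60a knockdown, 6, 5 and 1 in Sin3a knockdown, and 2, 9 and 3 in control. Neither gene supports a comparison at this depth.

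In Sin3a knockdown, Irf1 and Irf9 fell, and no member rose past the threshold. Irf1, the interferon-induced factor that switches on antigen presentation genes, was at 0.434 times and Irf9, the DNA-binding partner of STAT2, at 0.548 times the control level. In Fam60a knockdown no member passed the threshold of an adjusted p of 0.05. There 1 was at an unadjusted p under 0.05 in edgeR, beside 15.7% of all genes, and 0 were called by DESeq2, beside 8.18%. Tap1 was higher than control in every numbered pair of libraries in both knockdowns, but did not pass in either; with the replicate number added to the model as a block it passed in both. Of all 14465 genes tested, 10.2% were called in Sin3a knockdown against control, 3.91% as higher and 6.28% as lower, and 2.92% were called in Fam60a knockdown against control, 1.49% as higher and 1.44% as lower. With the replicate block, 887 genes were called in Fam60a knockdown, against 423 without it, and 916 were called as higher in Sin3a knockdown, against 566 without it. The block combined with leaving out Sin3a knockdown replicate 3 called 5842 genes in Fam60a knockdown, or 39.6% of those tested, and 6975 in Sin3a knockdown, or 47.3%. Among them were Irf1, Irf3 and Tap1 in Fam60a knockdown (log2 fold changes -0.55, 0.24 and 1.56, adjusted p = 8.73e-05, 0.0102 and 0.000983, edgeR). All 6 tested members were among them in Sin3a knockdown. Both comparisons use the same 3 control libraries.

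Irf1 had 28.7, 28.6 and 23.6 CPM in Sin3a knockdown, and 73.6, 65.1 and 48.4 CPM in control. All 3 Sin3a knockdown libraries lay below all 3 control libraries; Irf1, Irf9, B2m and Tap1 were the 4 of 6 members without overlap here, as were 33.2% of all genes, and in Fam60a knockdown 0 of 6 were, beside 34.4% of all genes. The log2 fold change was -1.20 ± 0.24 (SE; adjusted p = 0.0164, edgeR quasi-likelihood test over all genes). In Fam60a knockdown Irf1 had 50.9, 45.8 and 30.2 CPM, between the other groups on average but overlapping with the control, and its log2 fold change against control was -0.56 ± 0.23 (adjusted p = 0.284, edgeR). Each numbered Fam60a library was lower than its control, with log2 differences of -0.53, -0.50 and -0.68 for pairs 1, 2 and 3, and the fit with the replicate block gave -0.57 (adjusted p = 0.0591; range over alternatives 8.73e-05 to 0.722). The Sin3a call was lost when control replicate 1 or control replicate 2 was left out, with adjusted p of 0.0731 and 0.0675 in edgeR, and held in the other 13 of 15 alternative analyses (range of adjusted p 1.06e-06 to 0.0731).

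Irf9 had 11.7, 16.5 and 17.9 CPM in Sin3a knockdown, and 26.6, 30.2 and 26.7 CPM in control. The groups did not overlap, and the log2 fold change was -0.87 ± 0.21 (SE; adjusted p = 0.0334, edgeR). Fam60a knockdown, at 26.1, 29.9 and 23.9 CPM, overlapped with control (log2 fold change -0.06 ± 0.21, adjusted p = 0.978, edgeR). This Sin3a call held in 6 of 15 alternatives: it was lost without a filter on low counts (adjusted p = 0.0622), with only the 6 libraries compared (0.109), and in 7 of the 9 analyses that left out 1 library, all but those without Fam60a knockdown replicate 3 or Sin3a knockdown replicate 3 (0.055 to 0.155, edgeR). Irf9 overlaps Rnf31 on the same strand, so reads shared by both cannot be assigned. Rnf31, named for this overlap, had means of 79.1 CPM in Sin3a knockdown and 71.3 CPM in control (log2 fold change 0.14, adjusted p = 0.6, edgeR).

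Stat2, the partner of IRF9, had 54.1, 74.1 and 78.8 CPM in Sin3a knockdown, and 76.2, 100 and 90.6 CPM in control. Its groups overlapped, with a log2 fold change of -0.37 ± 0.18 (SE; adjusted p = 0.228, edgeR), and -0.49 (adjusted p = 0.000231) with the replicate block and without Sin3a knockdown replicate 3. In Fam60a knockdown, at 78.8, 94.7 and 80.3 CPM, the log2 fold change was -0.07 ± 0.18 (adjusted p = 0.969, edgeR). Irf3 had 43.0, 54.8 and 134 CPM in Sin3a knockdown, against 56.9, 68.4 and 63.8 CPM in control. Replicate 3 alone of the Sin3a libraries was above the controls, and the log2 fold change of 0.27 ± 0.37 (adjusted p = 0.678, edgeR) turned to -0.37 (adjusted p = 0.122) without it, and to -0.31 (adjusted p = 0.00814) without it and with the replicate block. Irf3 has a GC content of 56.67%. In Fam60a knockdown Irf3 had 61.2, 77.9 and 83.6 CPM (log2 fold change against control 0.24 ± 0.37, adjusted p = 0.932, edgeR).

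**Figure D1:**
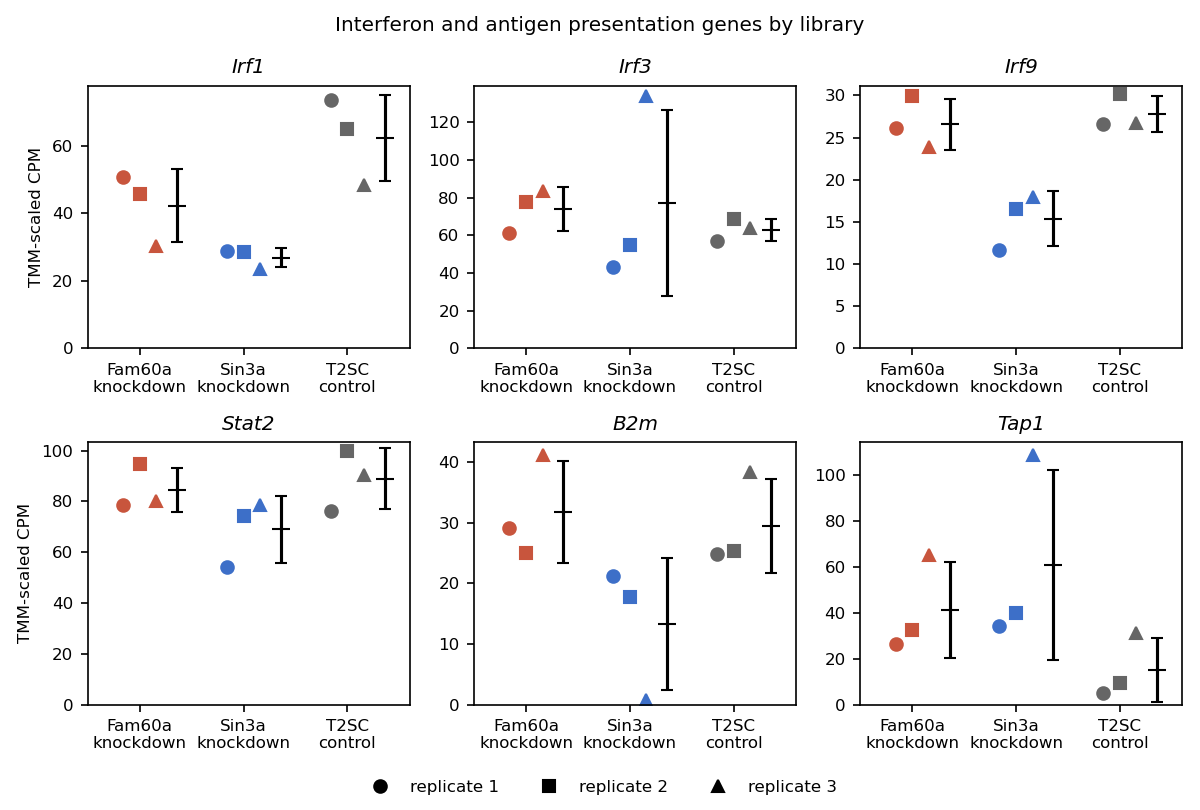
TMM-scaled CPM (vertical axis, from 0) of the 6 tested genes in each library of Fam60a knockdown, Sin3a knockdown and T2SC control; symbols give the replicate number and the bars the mean ± SD of 3 libraries. Irf1 and Irf9 are lowest in Sin3a knockdown, Tap1 is highest in replicate 3 of each group, and B2m is at 0.812 CPM in Sin3a knockdown replicate 3.

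Tap1 had 26.3, 32.5 and 65.3 CPM in Fam60a knockdown, 34.1, 39.7 and 109 CPM in Sin3a knockdown, and 4.89, 9.54 and 31.0 CPM in control. Replicate 3 was the highest library of each group, and the Sin3a knockdown libraries lay above all controls. Within pairs 1, 2 and 3, Fam60a knockdown exceeded control by 2.35, 1.73 and 1.07 on the log2 scale, and Sin3a knockdown exceeded control by 2.72, 2.03 and 1.81. Without the pairs, the log2 fold changes were 1.44 ± 0.70 in Fam60a knockdown (SE; adjusted p = 0.377, edgeR) and 1.98 ± 0.71 in Sin3a knockdown (adjusted p = 0.117). With the replicate block they were 1.69 (adjusted p = 0.0206) and 2.15 (adjusted p = 0.00554). Over all alternatives the adjusted p for Sin3a knockdown ranged between 0.000597 and 0.317. DESeq2 called it (log2 fold change 2.04, adjusted p = 0.0219), as did edgeR without control replicate 3 (3.11, adjusted p = 0.0437), and leaving out replicate 3 of the Sin3a libraries gave 1.28 (adjusted p = 0.223). Tap1 has a GC content of 55.79% and was higher in that replicate than in the other Sin3a libraries by 1.55 on the log2 scale.

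B2m had 21.2, 17.8 and 0.812 CPM in Sin3a knockdown, and 24.8, 25.4 and 38.4 CPM in control. Replicate 3 of the Sin3a libraries held 2 reads of B2m, while the others held 139 and 96. B2m has a GC content of 41.16%, and its log2 difference between that replicate and the other Sin3a libraries was -4.12. Whether GC content had a part in the values of Irf3, Tap1 and B2m in that library was not tested. The log2 fold change of B2m against control was -1.08 ± 0.66 (SE, adjusted p = 0.337, edgeR). It was -0.60 (adjusted p = 0.141) without that library, and -0.36 (adjusted p = 0.0291) without it and with the replicate block. In Fam60a knockdown B2m had 29.2, 25.0 and 41.3 CPM, overlapping with control (log2 fold change 0.11 ± 0.64, adjusted p = 0.991, edgeR). Patl2, which overlaps B2m on the opposite strand and is named for that reason, fell to 3.2 CPM in Sin3a knockdown, against 41.8 CPM in control (log2 fold change -3.56, adjusted p = 0.00665, edgeR).

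Between the knockdowns, no member passed the threshold, where 3.06% of all genes did, 2.18% as higher and 0.878% as lower in Fam60a knockdown, or 443 genes without and 672 with the replicate block. At an unadjusted p under 0.05 there were 2 members in edgeR, beside 18.1% of all genes. DESeq2 called 1 member, Irf9, beside 9.23% of all genes. Irf9 was higher in Fam60a than in Sin3a knockdown by 0.80 ± 0.21 on the log2 scale (SE; adjusted p = 0.0826, edgeR; 0.00574 in DESeq2), and by 0.93 without Sin3a knockdown replicate 3 (adjusted p = 0.0122). Irf1 was higher by 0.64 ± 0.24 (adjusted p = 0.193, edgeR). For 4 of the 6 members, Irf1, Irf9, Stat2 and B2m, the Fam60a and Sin3a libraries did not overlap, as was so for 25.5% of all genes. With the replicate block and without Sin3a knockdown replicate 3, 5 members were called as higher in Fam60a than in Sin3a knockdown, these 4 and Irf3. That fit called 5321 genes in all, or 36.1% of those tested. Irf3 had a log2 difference of -0.04 (adjusted p = 0.967, edgeR), which was 0.62 (adjusted p = 0.0321) without Sin3a knockdown replicate 3.

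**Figure D2:**
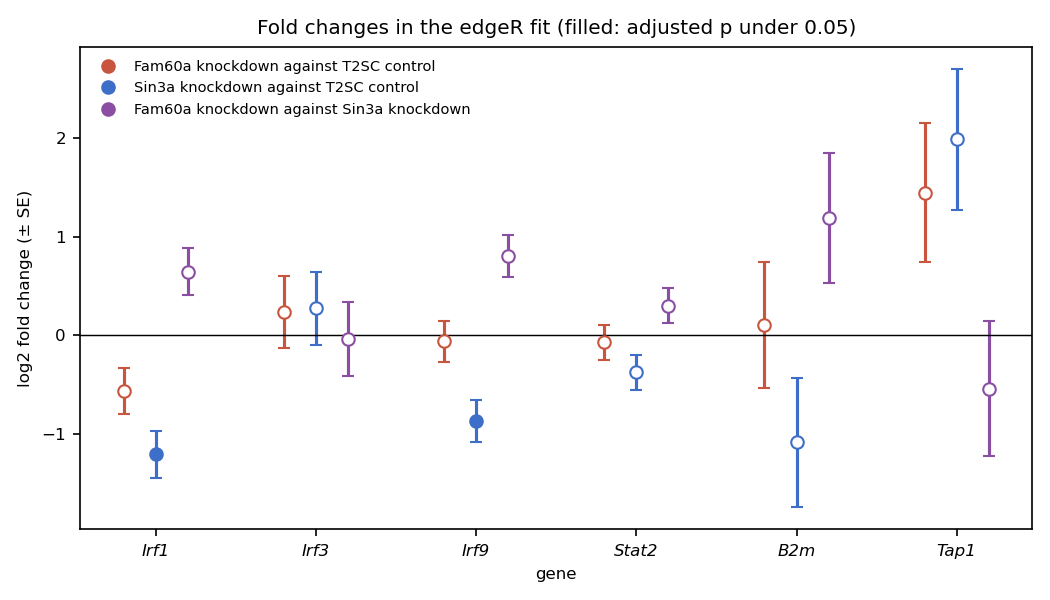
Log2 fold changes (vertical axis, ± SE) of the 6 tested genes in the 3 comparisons, with filled symbols for an adjusted p under 0.05 in the edgeR fit of 9 libraries. The filled symbols are those of Irf1 (-1.20) and Irf9 (-0.87) in Sin3a knockdown against control.

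The tested genes whose levels over the 9 libraries were nearest to those of Irf1 were Gm10167, Sin3a itself, Acsbg2, Lrrc61 and Pcbp3. Their mean absolute log2 difference from Irf1, each gene centred on its control mean, was between 0.115 and 0.148. These genes were picked for the smallest differences in the same libraries, so their closeness to Irf1 follows from the selection. No reference distance is given, so the list is a description and not evidence of a link to Irf1. Sin3a, at 0.132, averaged 217 CPM in Fam60a knockdown, 126 CPM in Sin3a knockdown and 287 CPM in control, where Irf1 averaged 42.3, 26.9 and 62.4 CPM. Sin3a in Fam60a knockdown had a log2 fold change of -0.40 against control (adjusted p = 0.0964, edgeR). In Sin3a knockdown, Sin3a is the target of the hairpin. Whether Irf1 follows the level of Sin3a was not tested.

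The other genes of the pathway were taken as 8 lists of 121 genes, of which 99 were tested. In Sin3a knockdown 16 fell and 4 rose, so that 20.2% were called, beside 10.2% of all genes. The lists were chosen with earlier results of these data known, so the difference between these shares may follow from that choice. In Fam60a knockdown 3 rose and 0 fell, or 3.03% beside 2.92% of all genes. Leaving out 1 library moved the Sin3a count of 20 between 3 (control replicate 1 left out) and 31 (replicate 3 of the Sin3a libraries left out). With control replicate 1 left out the share was 3.03%, beside 3.69% of all genes, and with control replicate 2 left out it was 4.04%, beside 3.55%. With the replicate block 27 were called in Sin3a knockdown, 7 that rose and 20 that fell, and 11 between the knockdowns, against 8 without it. In Fam60a knockdown the count of 3 was 0 in 6 of the 9 analyses that left out 1 library (any Fam60a library, Sin3a replicate 1, or control replicate 1 or 2) and 20 with Sin3a replicate 3 left out, when 14 rose and 6 fell. It was 16, with 12 that rose and 4 that fell, in a fit of the 6 compared libraries, and 6 in DESeq2, all higher than control. The median log2 fold change of the 99 genes was 0.007 in Fam60a knockdown and -0.14 in Sin3a knockdown, beside -0.0215 and -0.0119 over all genes. Over all genes, 15.7% had an unadjusted p under 0.05 in edgeR in Fam60a knockdown and 25.9% in Sin3a knockdown. DESeq2 called 8.18% and 17.4% of all genes.

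Of the 9 receptors and JAK kinases, 3 rose and 0 fell in Fam60a knockdown, and 2 rose and 1 fell in Sin3a knockdown. Ifngr1, the ligand-binding chain of the interferon gamma receptor, had 27.2, 26.8 and 26.1 CPM in Fam60a knockdown, 24.1, 24.0 and 33.3 CPM in Sin3a knockdown, and 15.0, 12.7 and 13.3 CPM in control. All 6 knockdown libraries lay above the controls (log2 fold changes 0.97 and 0.98 in Fam60a and Sin3a knockdown, adjusted p = 0.0373 and 0.0173, edgeR). Jak2, a kinase of the same receptor, had 54.8, 54.4 and 54.5 CPM in Fam60a knockdown, 53.1, 56.8 and 37.4 CPM in Sin3a knockdown, and 33.9, 30.2 and 27.1 CPM in control (log2 fold changes 0.84 and 0.70, adjusted p = 0.0452 and 0.0427). Ifngr2 and Jak1, named after their values were seen, were not called in either knockdown. Their log2 fold changes in Fam60a and Sin3a knockdown were 0.60 and -0.44 for Ifngr2, and 0.03 and 0.31 for Jak1. Il10rb, shared by the receptors of interferon lambda and interleukin 10, rose in Fam60a knockdown to 16.0 ± 3.14 CPM, against 5.95 ± 2.07 CPM in control (adjusted p = 0.0434, edgeR). Ifnlr1, the specific chain of the interferon lambda receptor, fell in Sin3a knockdown to 9.94 ± 0.573 CPM, against 23.6 ± 5.3 CPM in control (log2 fold change -1.25, adjusted p = 0.0136, edgeR), and was 2.82 times higher in Fam60a knockdown, at 28.0 ± 4.87 CPM, than in Sin3a knockdown (adjusted p = 0.0173). Of 15 alternatives, Ifngr1 kept its call in 6 in Fam60a knockdown and 11 in Sin3a knockdown (adjusted p up to 0.17 and 0.0801), Jak2 in 8 and 5 (up to 0.15 and 0.116), Il10rb in 8 in Fam60a knockdown and Ifnlr1 in 12 in Sin3a knockdown.

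Of the other STATs and IRFs, 11 of 12 were tested: 0 passed in Fam60a knockdown in edgeR, with 7 at an unadjusted p under 0.05 and 3 called by DESeq2, and 2 fell in Sin3a knockdown. Stat5a, a transducer of cytokine signals, had 31.0, 35.8 and 34.5 CPM in Fam60a knockdown, 9.76, 12.8 and 8.53 CPM in Sin3a knockdown, and 22.6, 20.1 and 20.3 CPM in control. It fell in Sin3a knockdown (0.499 times control, adjusted p = 0.0182, edgeR) and was higher in Fam60a than in Sin3a knockdown (log2 fold change 1.69, adjusted p = 0.00716). Irf8, a factor of blood cell development and antigen presentation, held 4, 2 and 0 reads in Sin3a knockdown, against 29, 25 and 21 reads in control (log2 fold change -3.18, adjusted p = 0.0121, edgeR). The Sin3a calls of Stat5a and Irf8 held in 10 and 14 of 15 alternatives. Stat3, named after its values were seen because it carries the LIF signal, had a log2 fold change of 0.24 in Fam60a knockdown (adjusted p = 0.259, edgeR) and of 0.24 in Sin3a knockdown (adjusted p = 0.155).

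Of the 39 interferon-stimulated genes, 23 were tested, and in Sin3a knockdown 7 fell and 0 rose, with a median log2 fold change of -0.60. In Fam60a knockdown 0 of 23 passed in edgeR or in DESeq2, with 5 at an unadjusted p under 0.05 and a median of -0.08. Dtx3l, a ubiquitin ligase, had 34.0, 37.3 and 32.1 CPM in Fam60a knockdown, 10.4, 10.0 and 4.87 CPM in Sin3a knockdown, and 40.7, 36.3 and 32.0 CPM in control. Every Sin3a library lay below every other library (log2 fold change against control -2.06 ± 0.27, adjusted p = 0.00356, edgeR). Ifi35, an interferon-induced leucine zipper protein, had 10.9, 10.7 and 7.75 CPM in Fam60a knockdown, 3.05, 2.97 and 2.44 CPM in Sin3a knockdown, and 11.7, 9.69 and 11.2 CPM in control (Sin3a knockdown -1.92 ± 0.27, adjusted p = 0.00431, edgeR). Both falls in Sin3a knockdown were called in all 15 alternatives, and both genes were higher in Fam60a than in Sin3a knockdown (1.99, adjusted p = 0.01, and 1.76, adjusted p = 0.0152, edgeR). Ifitm1, which restricts viral entry, had 24.9, 22.1 and 21.5 CPM in Fam60a knockdown, 11.7, 10.2 and 1.22 CPM in Sin3a knockdown, and 41.9, 38.2 and 35.8 CPM in control (Sin3a knockdown -2.23, adjusted p = 0.0251, edgeR). The other 4 that fell, named after their values were seen, were Oas2 (-1.64), Oasl1 (-3.83), Parp9, the partner of Dtx3l (-1.35), and Oas1b (-2.10), with adjusted p between 0.0263 and 0.035. The Sin3a calls of Ifitm1, Oas2, Oasl1, Parp9 and Oas1b held in 9, 11, 10, 8 and 6 of 15 alternatives, with adjusted p up to 0.128. Oas and Ifitm genes have close paralogs, and reads of 50 bases may be split between copies. The count of 7 that fell was 9, beside 1 that rose, with replicate 3 of the Sin3a libraries left out, and 2 with control replicate 1 left out. Among the 16 untested, Isg15, Ifit1, Ifit3 and Usp18 held between 0 and 4 reads in every library.

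**Figure D3:**
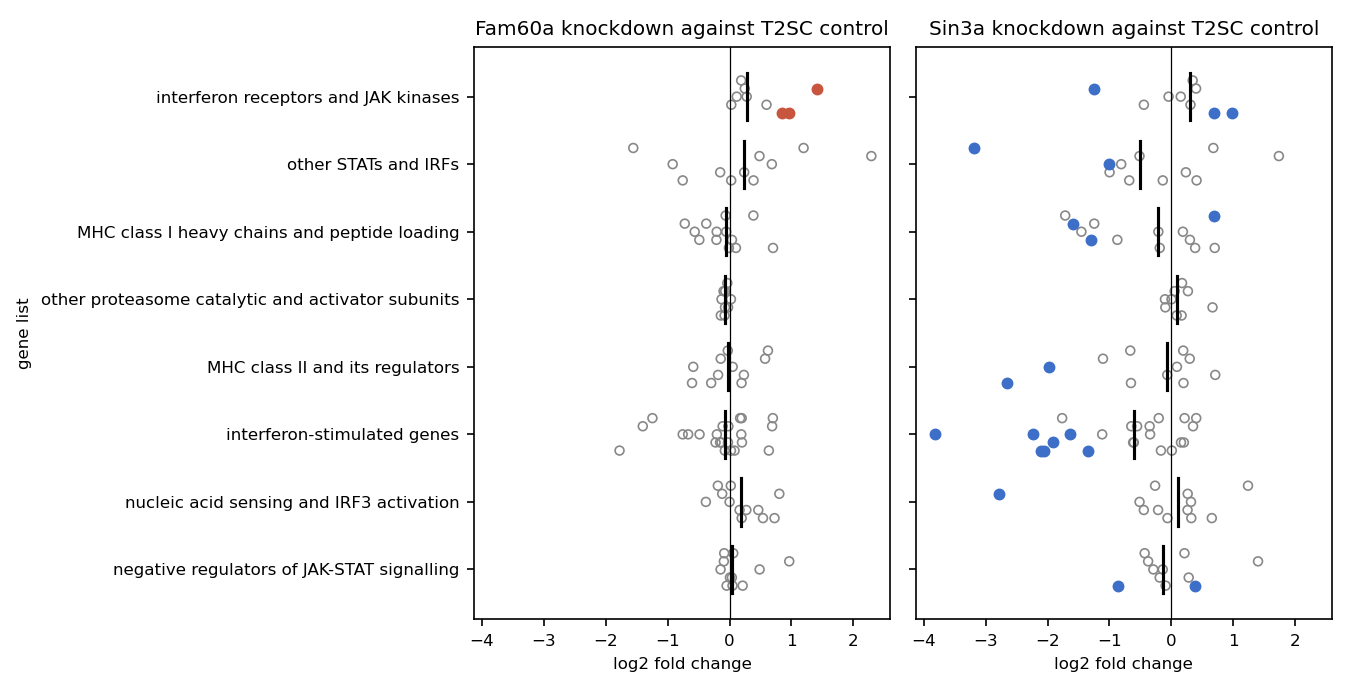
Log2 fold change (horizontal axis) of each tested gene of the 8 pathway lists in Fam60a knockdown (left) and Sin3a knockdown (right) against control; filled points have an adjusted p under 0.05 and black bars are list medians. The median of the interferon-stimulated genes is -0.08 on the left and -0.60 on the right, where 7 of 23 points are filled.

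Of 15 MHC class I heavy chains and loading factors, 13 were tested: 0 passed in Fam60a knockdown in edgeR or DESeq2, with 2 at an unadjusted p under 0.05, and in Sin3a knockdown 2 fell and 1 rose. H2-K1, a classical heavy chain, had 22.5, 26.2 and 27.4 CPM in Fam60a knockdown, 12.5, 10.4 and 21.5 CPM in Sin3a knockdown, and 32.9, 39.0 and 34.7 CPM in control (Sin3a knockdown log2 fold change -1.30 ± 0.27, adjusted p = 0.0195, edgeR). Heavy chain genes are near-identical copies, so these values are uncertain. The peptide editor Tapbpl fell to 2.28 ± 0.284 CPM in Sin3a knockdown, against 6.97 ± 0.312 CPM in control (adjusted p = 0.0132, edgeR). Tapasin, Tapbp, which holds class I at the transporter, rose to 94.8 ± 19.9 CPM in Sin3a knockdown, against 58.4 ± 2.42 CPM in control (adjusted p = 0.0269, edgeR). Of the 9 other proteasome subunits and activators, 0 passed in either knockdown in edgeR or DESeq2, and 0 had an unadjusted p under 0.05. Of 13 MHC class II genes and regulators, 11 were tested, and 2 fell in Sin3a knockdown, both of the peptide exchange factor H2-DM: H2-DMa (-1.97, adjusted p = 0.00678) and H2-DMb1 (-2.66, adjusted p = 0.0346, edgeR). The Sin3a call of H2-DMa held in all 15 alternatives, and those of H2-K1, Tapbpl, Tapbp and H2-DMb1 in 9, 12, 9 and 7.

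Of 13 genes of nucleic acid sensing, 12 were tested, and 1 fell in Sin3a knockdown. Tmem173, which encodes the sensor adaptor STING, had 40, 57 and 42 reads in Fam60a knockdown, 4, 4 and 0 reads in Sin3a knockdown, and 30, 35 and 10 reads in control (Sin3a knockdown log2 fold change -2.78, adjusted p = 0.0283, edgeR). It was higher in Fam60a than in Sin3a knockdown by 3.59 (adjusted p = 0.0234). Of 11 negative regulators of JAK-STAT signalling, Socs3, the feedback inhibitor of LIF signals, rose to 243 ± 19.3 CPM in Sin3a knockdown, against 186 ± 7.92 CPM in control (adjusted p = 0.0436, edgeR). The phosphatase Ptpn6 fell to 32.5 ± 6.0 CPM in Sin3a knockdown, against 58.8 ± 4.79 CPM in control (adjusted p = 0.0153, edgeR). The Sin3a calls of Tmem173, Socs3 and Ptpn6 held in 8, 5 and 10 of 15 alternatives. No gene of the nucleic acid sensing and negative regulator lists passed in Fam60a knockdown, with 2 and 0 at an unadjusted p under 0.05 in edgeR and 0 called by DESeq2.

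Summed blood cell markers were below control in both knockdowns. The summed level of 10 blood cell markers was 21.3 to 34.5 CPM in Fam60a knockdown, 4.47 to 21.9 CPM in Sin3a knockdown and 42.5 to 50.7 CPM in control. Of the 4 tested, Itgam fell in both knockdowns, and Cd3e fell in Sin3a knockdown. Cd14 went the other way in Fam60a knockdown, without a call (log2 fold change 1.35, adjusted p = 0.248, edgeR). Ptprc, the defining pan-leukocyte marker, held 1, 2 and 1 reads in Fam60a knockdown and 0 reads in every Sin3a knockdown and control library. The 8 fibroblast markers summed to 22.4 to 32.2 CPM in Fam60a knockdown, 14.7 to 51.2 CPM in Sin3a knockdown and 31.1 to 73.4 CPM in control, and 1 of the 3 tested, Thy1, fell in Sin3a knockdown. Col1a2, also tested, went the other way there without a call, at 16.4 ± 16.5 CPM against 5.12 ± 5.69 CPM in control. The part of these transcripts in the results was not tested.

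**Figure D4:**
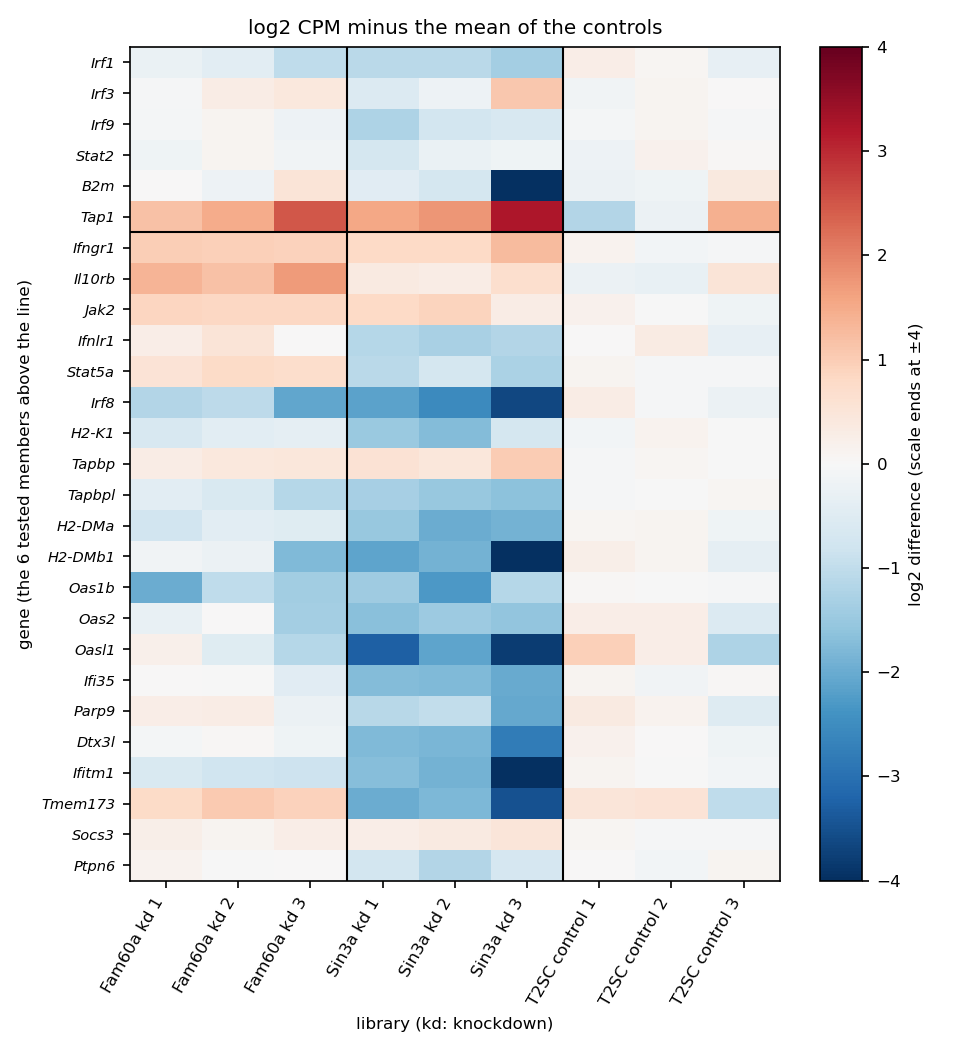
Log2 CPM of the 6 tested members (above the line) and of pathway genes called in a comparison, minus the control mean, by library; red is higher, blue is lower, and the scale ends at ±4. The Sin3a knockdown columns are blue for Irf1, Irf9, Dtx3l and Ifi35, and the Tap1 row is red in all 6 knockdown libraries and in control replicate 3, at 1.42, which is above Fam60a knockdown replicate 1, at 1.18.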

How the data were processed

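RNA of 9 libraries was measured by sequencing of 50 base single ends from a TruSeq stranded kit, per the labels' protocols. The authors deposited raw counts of reads per Ensembl gene, made with STAR 2.4.0j, Picard and featureCounts of Subread, per the submitters' processing notes. Duplicate reads had been removed, per the file headers, which can lower the counts of abundant genes. The genome build was not given in the sources used here. Gene IDs were matched to GENCODE M21 on GRCm38, whose symbols and positions are used (32918 of 37990 genes).

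The tests used edgeR 4.0.16 (limma 3.58.1, R 4.3.3): filterByExpr, TMM scaling, and robust quasi-likelihood F-tests in 1 model of 9 libraries in 3 groups, with Benjamini-Hochberg adjustment over 14465 genes and a threshold of 0.05. Every adjusted p is from this fit unless DESeq2 (1.42.0) or another setting is named. CPM are TMM-scaled, and log2 CPM used a prior count of 2. Each SE was derived from the F statistic of the fold change. The biological coefficient of variation was 0.25. The fit was checked on simulated counts, drawn with a common spread for all genes and with no replicate effect or outlying expression profile. The check therefore does not cover these features of the data. The alternatives were DESeq2 size factors, the DESeq2 Wald test, no filter, a replicate block, the block without Sin3a knockdown replicate 3, the 6 compared libraries alone, and each library left out.

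The members and gene lists were chosen with earlier results of these data known. Named genes are the members, the targets, up to 3 risen and 3 fallen genes per list and knockdown with the smallest adjusted p, and the 5 genes nearest to Irf1, and others are said to be chosen after their values were seen. Comparisons of both knockdowns share controls. The labels state no replicate block. Deviations from group means correlated at r of 0.178 to 0.622 in all 9 same-numbered pairs of different groups, against -0.448 to 0.113 for other pairs. These correlations run over genes, which are no independent replicates. Deviations sum to 0 within each group, so positive values for same-numbered pairs push those of other pairs down, and part of this contrast is built in. The pairing used for the block comes from the replicate numbers in the titles alone, and the main fit does not use it. Block results are given for members whose call they change, for counts of all genes that move by over 1.5 times, and for the pathway lists together. The floor of 3 reads covers counting error only.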

Additional observations from a re-analysis of the deposited data

How the results depend on the processing

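With the replicate block, the paired fit, 887 genes were called in Fam60a knockdown against control, in place of 423, and 672 between the knockdowns, in place of 443; Tap1 gained a call in each knockdown against control, giving 1 called member in place of 0 in Fam60a knockdown, and no member lost one. Without Sin3a knockdown replicate 3 as well, 5842, 6975 and 5321 genes were called in Fam60a knockdown against control, Sin3a knockdown against control and Fam60a against Sin3a knockdown. These were 39.6%, 47.3% and 36.1% of the genes tested. Among them were 3, 6 and 5 members and 49, 58 and 47 genes of the lists. DESeq2 called 1181, 2507 and 1332 genes (main counts 423, 1475 and 443), 1 member between the knockdowns, and 7 and 22 list genes in Fam60a knockdown against control and against Sin3a knockdown (main 4 and 9, marker lists included). With only the 6 libraries compared, 1827, 739 and 0 genes were called, 18, 8 and 0 list genes, and 1 member in Sin3a knockdown, as without the filter. Leaving out 1 library gave 11 to 2495, 521 to 3606 and 48 to 2166 genes, 0 to 24, 4 to 36 and 1 to 23 list genes, and 0 to 2 members in Sin3a knockdown and between the knockdowns; the highest counts came without Sin3a knockdown replicate 3.

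Directions turned for 11 values; the cause was not tested. Against control in Fam60a knockdown (log2), Irf9 was at 0.0129 without Fam60a knockdown replicate 3 and 0.0197 without control replicate 2 (range with 1 library left out -0.150 to 0.0197), Stat2 at 0.0389 without control replicate 2 (-0.158 to 0.0389), and B2m at -0.124 without Fam60a knockdown replicate 3 (-0.124 to 0.367). Irf3 in Sin3a knockdown was at -0.369 without Sin3a knockdown replicate 3 (-0.369 to 0.567) and at -0.313 with the block as well. Between the knockdowns Irf3 was at 0.0695 with the block, 0.556 with the block and without Sin3a knockdown replicate 3, 0.0851 without Fam60a knockdown replicate 1 and 0.617 without Sin3a knockdown replicate 3 (-0.328 to 0.617), and Tap1 at 0.172 without that replicate (-1.03 to 0.172). Of the other single-gene values, 650 kept direction and side of the threshold, 218 fell short of it and 20 passed it. DESeq2 size factors moved no share of higher calls by over 10 percentage points. Depth limits Psmb8, Nlrc5 and most silent interferon-stimulated genes.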
